A study of Mus musculus with 6 samples.

Results

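The 8 genes described here encode transcription factors that read the activation of a T cell: Irf4 and Irf8 of the interferon regulatory factor family, Batf and Batf3 of the AP-1 superfamily, Myc, and the nuclear factors of activated T cells Nfatc1, Nfatc2 and Nfatc3. They were taken by a list of names, drawn up with earlier results of these data known, and all 8 were among the 11175 genes with deposited FPKM values (fragment counts scaled by transcript length and library size). RNA came from splenic CD8+ T cells of wild-type (WT) mice, all of them stimulated for 48 h with αCD3/αCD28, antibodies against the antigen receptor complex and its costimulatory receptor. In the 3 control (Ctr) libraries nothing else was named, and in the 3 DOPAC libraries the same stimulation was given with DOPAC (3,4-dihydroxyphenylacetic acid), a breakdown product of dopamine. The dose, the age and strain of the mice, and a sample without stimulation were not given in the labels, so induction from the resting state was not analysed here. Nothing in the labels says whether replicates were separate animals or cultures. The p-values below measure spread among these 6 libraries, and that spread may be technical.

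These factors act in order after the antigen receptor is engaged. Calcium entry activates the phosphatase calcineurin, which strips phosphate from NFAT proteins so that they enter the nucleus, where they often bind DNA next to AP-1. IRF4 is induced in proportion to the strength of the receptor signal and binds DNA weakly alone, so in T cells it works largely at composite sites with BATF and a JUN protein. MYC, dimerised with MAX at E-box sequences, drives the growth and metabolism of the blast stage, and its protein and RNA are both short-lived. BATF and BATF3 are small basic leucine zipper proteins without a transactivation domain of their own. IRF8 and BATF3 are best known from type 1 dendritic cells, and activated CD8+ T cells also transcribe both.

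The 250 bases before the RefSeq start of the 4 IRF and BATF genes are printed here (RefSeq, GRCm38.p6). They run 5′ to 3′ on the strand of the gene. For Irf8, which has 2 listed starts, the upstream one is shown. Capitals mark matches, on either strand, to the E-box CACGTG that MYC and MAX recognise or to the NFAT core GGAAA. The windows are chr13:30748983-30749232 (+) for Irf4, chr8:120736108-120736357 (+) for Irf8, chr12:85686470-85686719 (+) for Batf and chr1:191098164-191098413 (+) for Batf3.
Irf4: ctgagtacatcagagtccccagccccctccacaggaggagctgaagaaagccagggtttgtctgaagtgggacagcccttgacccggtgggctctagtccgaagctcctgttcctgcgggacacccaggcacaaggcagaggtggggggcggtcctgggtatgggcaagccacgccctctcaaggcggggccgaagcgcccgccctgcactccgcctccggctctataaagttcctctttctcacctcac
Irf8: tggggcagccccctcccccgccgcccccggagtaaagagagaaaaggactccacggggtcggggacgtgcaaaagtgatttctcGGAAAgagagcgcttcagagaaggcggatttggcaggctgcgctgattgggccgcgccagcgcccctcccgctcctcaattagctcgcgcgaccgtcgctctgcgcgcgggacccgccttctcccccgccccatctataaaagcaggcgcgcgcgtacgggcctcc
Batf: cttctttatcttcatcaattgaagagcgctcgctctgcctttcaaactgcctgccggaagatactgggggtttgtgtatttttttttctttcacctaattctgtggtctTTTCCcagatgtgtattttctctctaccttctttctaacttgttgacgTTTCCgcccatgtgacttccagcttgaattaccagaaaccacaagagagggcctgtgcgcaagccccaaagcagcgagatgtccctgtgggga
Batf3: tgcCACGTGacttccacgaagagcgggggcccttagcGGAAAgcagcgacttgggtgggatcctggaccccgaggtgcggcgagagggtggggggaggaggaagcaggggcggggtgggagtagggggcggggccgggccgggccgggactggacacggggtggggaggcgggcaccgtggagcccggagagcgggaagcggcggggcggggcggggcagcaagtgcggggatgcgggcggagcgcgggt

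The Irf4 window held neither motif. The Irf8 window held 1 NFAT core, the Batf window 2, and the Batf3 window 1 NFAT core and 1 E-box at its far end. In the GENCODE M21 annotation the Batf3 gene begins at 191097847, so its window, with both matches, lies inside that gene. The windows of Irf4 and Batf likewise run past the GENCODE starts of these genes, at 30749226 and 85686669. In all, 9 windows of 6 of the 8 genes were searched, and Myc and Nfatc1 were not. An NFAT core stood in 7 of the 9 windows, against 55.6% of 32851 promoter windows of the same length. An E-box stood in 2 of the 9, those of Batf3 and of the downstream start of Nfatc3, against 6.02% of all windows. The AP-1 motif TGANTCA (6.75% of all windows) and the core of the interferon-stimulated response element (2.98%) were in none of the 9. These are matches of letters in a short window and say nothing of whether a factor binds there, or of sites farther away.

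The libraries carried T cell transcripts at high levels. The 6 T cell markers summed to between 705 and 865 FPKM in the controls and between 656 and 758 FPKM with DOPAC, and Cd8a with Cd8b1 to between 323 and 355 and between 313 and 358 FPKM. Control replicate 1 stood apart from the rest, with Pearson's r over genes of 0.899 to 0.917 with the other 5 libraries, where those 5 gave 0.974 to 0.992 among themselves, and it had high values of genes with short exons. FPKM give no read counts, so the depth is unknown. Each result is given with and without that library where it matters.

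All 8 genes were transcribed at 48 h, over a wide range of levels. Averaged over the 6 libraries, the FPKM were 129 for Irf4, 115 for Myc, 43.7 for Irf8, 33.0 for Nfatc1, 17.1 for Nfatc3, 13.4 for Batf, 7.59 for Nfatc2 and 3.86 for Batf3. FPKM are scaled by transcript length, so these levels can be set against each other, but only roughly. Control replicate 1 kept a trend with exon length, given below. Irf4 stood above 97.3% of the listed genes, Myc above 97.0% and Batf3 above 31.6%, where the median listed gene had 7.28 FPKM. This order was the same in 5 of the 6 libraries. In control replicate 1 the neighbours Irf4 and Myc, Nfatc3 and Batf, and Nfatc2 and Batf3 changed places. In each of these 3 pairs the gene with the shorter exons stood higher there, and the cause was not tested. The order within these pairs thus did not hold in all 6 libraries.

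**Figure D1:**
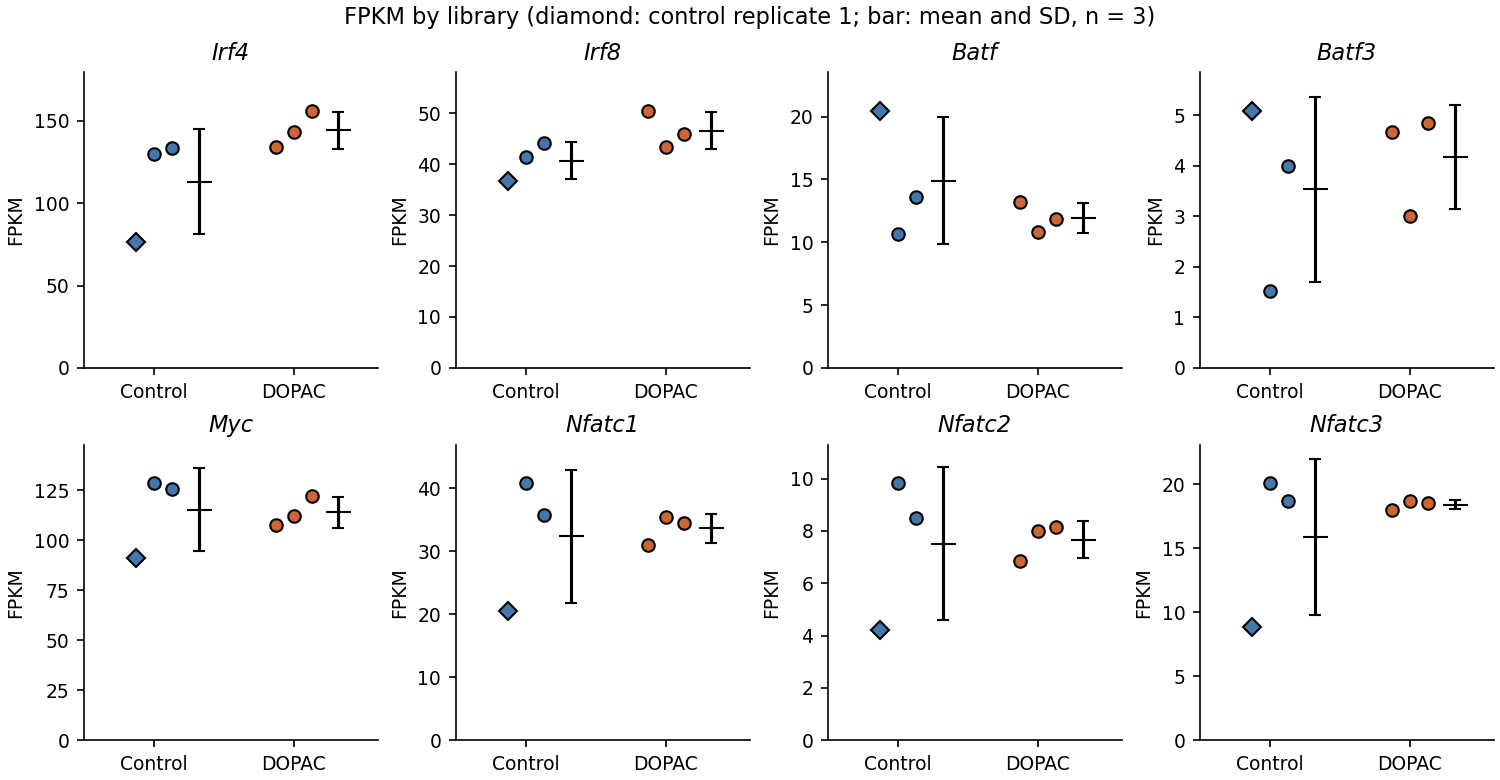
FPKM (vertical axes, each from 0) of the 8 genes in the 3 control and 3 DOPAC libraries, 1 point per library, with the mean and SD (n = 3) beside each group. Control replicate 1, the diamond, is the lowest point for 6 genes and the highest for Batf and Batf3, and the groups separate for Irf4, by 0.266 FPKM.

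No change of any of the 8 genes with DOPAC passed the test. With limma's moderated test on log2(FPKM + 1), fitted to the 10887 genes with a mean of at least 1 FPKM, 0 of the 8 had a Benjamini-Hochberg adjusted p under 0.05 (lowest 0.801, highest 0.998), and 0 of the 8 had an unadjusted p under 0.05. Over all genes tested the shares were 0% and 4.19%. The log2 fold change (DOPAC minus control, on the log2(FPKM + 1) scale) was positive for 6 of the 8 genes and negative for 2, against 62.1% positive over all genes tested. The median of the 8 was 0.15, beside 0.066 over all genes tested. When control replicate 1 was left out, 3 of the 8 were positive and the median was -0.041, with 47.3% of all genes positive.

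Irf4 was the gene whose groups did not overlap. It measured 76.3, 129 and 133.5 FPKM in control replicates 1, 2 and 3, and 133.8, 143 and 156 FPKM in DOPAC replicates 1, 2 and 3. Every DOPAC library lay above every control, but the lowest DOPAC value exceeded the highest control by 0.266 FPKM, and control replicate 1 alone was far below. The means were 113 ± 32.0 and 144 ± 11.2 FPKM (SD, n = 3 each), which gave a log2 difference of 0.39 (95% interval -0.16 to 0.94; limma adjusted p = 0.801). Groups failed to overlap in 17.2% of all genes tested, 12.4% with DOPAC above control, so 1 of 8 is near the background. Without control replicate 1 the log2 fold change of Irf4 was 0.13 (95% interval -0.080 to 0.34; limma adjusted p = 0.517), against 0.39 with all 6 libraries. Its gene lies on chromosome 13 at 30749226 to 30766976 (GENCODE M21, GRCm38).

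Irf8, the other interferon regulatory factor of this group, varied least among the 8 genes over the 6 libraries. It measured 36.7, 41.3 and 44.1 FPKM in the controls and, with DOPAC, 50.5, 43.4 and 45.9 FPKM, in the order of the replicate numbers. The highest library of all was DOPAC replicate 1, and the groups overlapped between DOPAC replicate 2 and control replicate 3. The means were 40.7 ± 3.73 and 46.6 ± 3.60 FPKM (SD, n = 3 each), with a log2 fold change of 0.19 (95% interval -0.12 to 0.50; limma adjusted p = 0.801), or 0.12 when control replicate 1 was left out (95% interval -0.090 to 0.33; limma adjusted p = 0.551). The highest value was 1.37 times the lowest, where this ratio was 2.05 for Irf4. Irf4 exceeded Irf8 in every library, by 2.08, 3.13 and 3.03 times in the controls and 2.65, 3.29 and 3.396 times with DOPAC, and the ratios of the groups overlapped. Irf8 lies on chromosome 8 at 120736358 to 120756694.

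Since Irf8 and Batf3 are also genes of dendritic cells, and Irf4 of B cells and plasma cells, markers of these cells were read in the same libraries. Of 7 markers of type 1 dendritic cells 1 was listed, Naaa, at 0.905 to 1.17 FPKM in the controls and 0.959 to 1.06 FPKM with DOPAC, and Xcr1, Clec9a, Itgax, Flt3, Zbtb46 and Wdfy4 were not analysed here. Of 8 B cell markers Cd79b measured 1.47 to 2.61 FPKM over the 6 libraries and Ighm 126 to 154 FPKM, and the other 6 were not analysed here. These markers differed widely in level, and Ighm alone does not show that B cells were present. The plasma cell markers Xbp1 and Sdc1 summed to between 24.9 and 27.5 FPKM in the controls and between 27.4 and 37.7 FPKM with DOPAC, most of it from Xbp1, and Jchain was not analysed here. The 3 listed of 8 macrophage markers summed to between 15.4 and 35.2 FPKM in the controls and between 4.77 and 13.0 FPKM with DOPAC, lower in all 3 DOPAC libraries. Of 4 NK markers 1 was listed, Eomes (3.54 to 4.93 and 2.92 to 3.12 FPKM, for controls and DOPAC in that order). Of 4 markers of plasmacytoid dendritic cells 1 was listed, Bst2 (22.0 to 67.2 and 27.1 to 35.9 FPKM). Either gene alone does not show that such cells were present, and the other markers of these 2 lists were not analysed here. In the same order, 2 globin genes summed to 2.72 to 10.4 and 0.280 to 3.02 FPKM, and 2 collagen genes of fibroblasts to 21.1 to 23.5 and 0.234 to 13.7 FPKM. The markers of CD4+ T cells, Cd4, Zbtb7b and Foxp3, were not analysed here. The part of such cells in the values of Irf4, Irf8 and Batf3 was not tested. In bulk RNA, fewer cells of a type and less RNA per cell cannot be told apart.

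Batf, the partner of IRF4 at composite sites, was the gene with the most negative log2 fold change of the 8. It measured 20.5, 10.6 and 13.6 FPKM in control replicates 1, 2 and 3 and 13.2, 10.8 and 11.9 FPKM in the DOPAC libraries. Control replicate 1 was high, and the other 2 controls lay on either side of the 3 DOPAC values. The means were 14.9 ± 5.04 and 11.96 ± 1.20 FPKM (SD, n = 3 each), with a log2 fold change of -0.25 (95% interval -0.81 to 0.31; limma adjusted p = 0.802). It was -0.012 without control replicate 1 (95% interval -0.32 to 0.30). Batf is on chromosome 12 at 85686669 to 85709087 and has 1406 bp of summed exons, the shortest of the 8 genes.

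Batf3 had the lowest level and the widest spread of the 8. It measured 5.09, 1.51 and 4.003 FPKM in the controls and 4.67, 3.00 and 4.86 FPKM with DOPAC. In both groups replicate 2 was the low library, and the groups overlapped. DOPAC minus control was 0.26 on the log2 scale (95% interval -0.56 to 1.09; limma adjusted p = 0.835), and -0.11 without control replicate 2, the low control. It was 0.52 without control replicate 1 (95% interval -0.26 to 1.30). With the replicate number kept as a block in the fit, the interval of Batf3 was -0.22 to 0.75 (limma adjusted p = 0.698). Batf exceeded Batf3 in every library, by 4.02, 7.03 and 3.39 times in the controls and 2.83, 3.61 and 2.44 times with DOPAC, with overlapping groups. Batf3 lies on chromosome 1 at 191097847 to 191108945.

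Myc, at a level close to that of Irf4, had nearly equal means in both groups. It measured 91.3, 129 and 126 FPKM in the controls and 107, 112 and 122 FPKM with DOPAC. The low library was again control replicate 1, and all 3 DOPAC values lay between it and the other 2 controls. The means were 115 ± 20.8 and 114 ± 7.55 FPKM (SD, n = 3 each), so that the log2 difference was -0.0017 (95% interval -0.39 to 0.39; limma adjusted p = 0.998), with a positive sign under quantile normalization. The value was -0.16 without control replicate 1 (95% interval -0.35 to 0.034; limma adjusted p = 0.408), and both remaining controls were above all 3 DOPAC libraries. Myc is on chromosome 15 at 61985391 to 61990374.

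Its dimerisation partner Max was transcribed at 46.6, 45.2 and 46.6 FPKM in the controls and 43.5, 44.1 and 38.1 FPKM with DOPAC. All 3 DOPAC libraries lay below the controls, with a log2 fold change of -0.14 (95% interval -0.42 to 0.14; limma adjusted p = 0.801). Myc exceeded Max by 1.96, 2.85 and 2.70 times in the controls and by 2.47, 2.54 and 3.21 times with DOPAC, with overlapping groups. The related genes Mycn and Mycl were not analysed here.

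The 3 NFAT genes differed in level and kept nearly the same proportions in every library. Nfatc1, whose short isoform is induced by NFAT itself during activation, was the most abundant, at 20.5, 40.8 and 35.8 FPKM in the controls and 31.0, 35.4 and 34.5 FPKM with DOPAC. Nfatc2, present in resting T cells, measured 4.22, 9.83 and 8.48 FPKM in the controls and 6.86, 7.98 and 8.16 FPKM with DOPAC. Nfatc3, also present before activation, measured 8.86, 20.1 and 18.7 FPKM in the controls and 17.97, 18.7 and 18.5 FPKM with DOPAC. In all 3 genes control replicate 1 was the lowest library by far and control replicate 2 the highest, so that the DOPAC values fell inside the range of the controls. The values are sums over the isoforms of a gene, and the short isoform of Nfatc1 was not measured apart.

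The log2 fold changes of the NFAT genes were 0.11 for Nfatc1 (95% interval -0.50 to 0.71; limma adjusted p = 0.909), 0.090 for Nfatc2 (95% interval -0.57 to 0.75; 0.929) and 0.28 for Nfatc3 (95% interval -0.41 to 0.97; 0.806). Without control replicate 1 all 3 were negative, at -0.18 (95% interval -0.41 to 0.048), -0.23 (95% interval -0.48 to 0.023) and -0.070 (95% interval -0.24 to 0.095), and for Nfatc1 and Nfatc2 both remaining controls were above all 3 DOPAC libraries. The sign for these genes thus rested on 1 control library. With it left out, 4 of the 8 genes had groups that did not overlap, Irf4 above the controls and Myc, Nfatc1 and Nfatc2 below, where 36.8% of all genes tested did so. In that fit 0 of the 8 had an adjusted p under 0.05 (limma, lowest 0.374), beside 0.0184% of all genes. Leaving out another library gave 2 of the 8 without control replicate 2 (29% of all genes), 2 without control replicate 3 (26.3%), 1 without DOPAC replicate 1 (29.1%), 2 without DOPAC replicate 2 (22%) and 1 without DOPAC replicate 3 (21.3%), and 1 under quantile normalization (18.6%) or equal medians (19.1%). Nfatc1 lies on chromosome 18 at 80606205 to 80713071, Nfatc2 on chromosome 2 at 168476410 to 168601657 and Nfatc3 on chromosome 8 at 106058840 to 106130537. The exons of Nfatc3 share 219 bp with Esrp2 on the opposite strand, and these libraries do not mark the strand.

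Ratios within a library remove the shifts that the NFAT genes share. Nfatc1 exceeded Nfatc2 by 4.87, 4.15 and 4.22 times in the controls and 4.52, 4.44 and 4.23 times with DOPAC. Nfatc1 exceeded Nfatc3 by 2.32, 2.03 and 1.92 times in the controls and 1.73, 1.896 and 1.86 times with DOPAC. Nfatc3 exceeded Nfatc2 by 2.10, 2.04 and 2.199 times in the controls and 2.62, 2.34 and 2.27 times with DOPAC. The ratio of Nfatc1 to Nfatc2 overlapped between the groups. In both ratios with Nfatc3 the groups did not overlap, with Nfatc3 relatively higher in each DOPAC library. As a share of the summed FPKM of the 3 genes, Nfatc3 held 26.4%, 28.4% and 29.7% in control replicates 1 to 3, against 32.2%, 30.1% and 30.3% in the DOPAC libraries. These were 2 of 6 ratios examined, chosen here after their values were seen, and the differences were not tested. Both hold Nfatc3, so they are not independent. The share of ratios of other genes whose groups fail to overlap was not computed. A shift that differs with exon length, as in control replicate 1, need not cancel in a ratio.

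**Figure D2:**
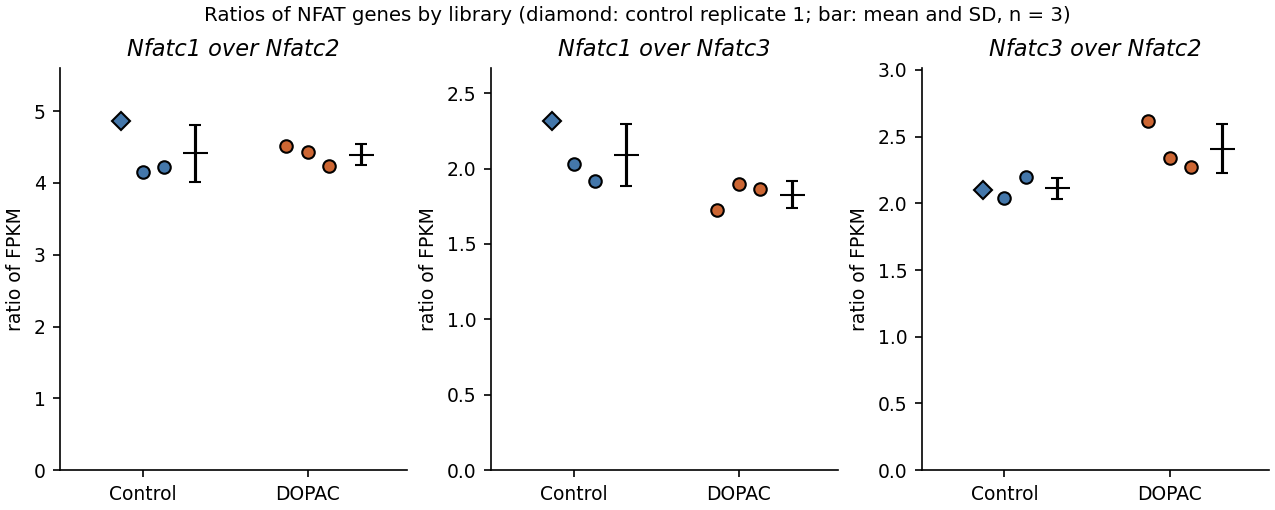
Ratios of FPKM between NFAT genes (vertical axes, each from 0) in the 3 control and 3 DOPAC libraries, 1 point per library, with the mean and SD (n = 3). Nfatc1 over Nfatc2 overlaps between groups, while Nfatc1 over Nfatc3 is at most 1.896 with DOPAC and at least 1.92 in the controls.

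In control replicate 1 the genes with short exons were high and those with long exons low. Batf and Batf3, with 1406 and 1597 bp of summed exons, were above the mean of the other 5 libraries there by 0.73 and 0.47 on the log2(FPKM + 1) scale. Myc, with 2717 bp, deviated by -0.38. The 5 genes with longer exons also lay below the other libraries, Irf4 (4903 bp) by -0.86, Irf8 (7055 bp) by -0.28 (a smaller deviation than that of Myc), Nfatc1 (7469 bp) by -0.76, Nfatc2 (10578 bp) by -0.82 and Nfatc3 (11726 bp) by -1.004. All genes tested within 0.5 log2 units of the same lengths had median deviations in that library of 0.26 for the length of Batf, 0.18 for Batf3, -0.11 for Myc, -0.37 for Irf4, -0.52 for Irf8, -0.53 for Nfatc1, -0.62 for Nfatc2 and -0.66 for Nfatc3. Irf8 thus lay above the median of genes of its length, as did Batf and Batf3. Irf4, Myc, Nfatc1, Nfatc2 and Nfatc3 lay below theirs. All except Irf8 deviated further than that median, in the same direction, and the cause was not tested.

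**Figure D3:**
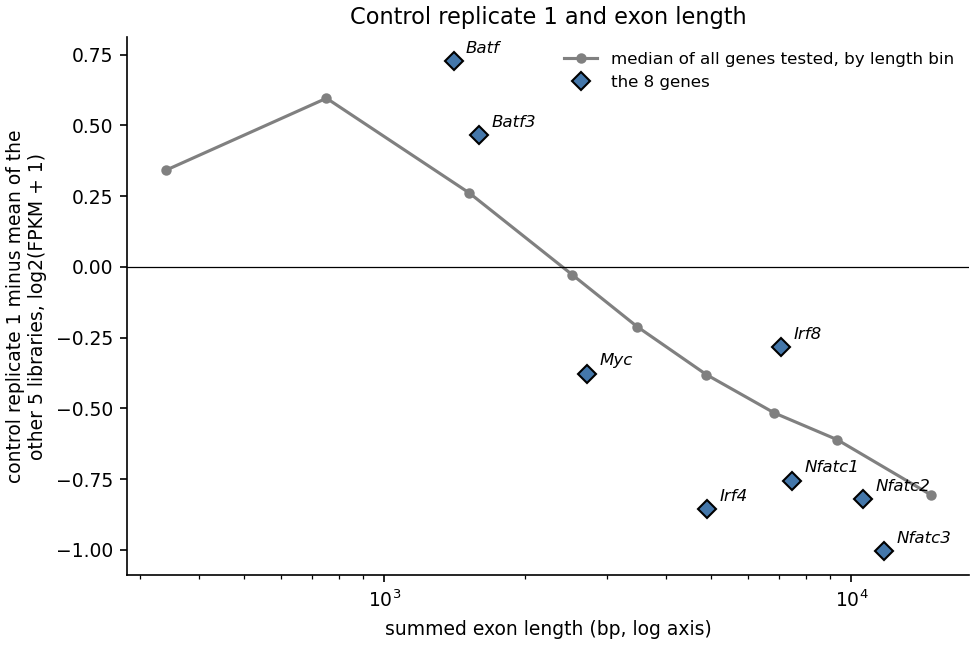
Deviation of control replicate 1 from the mean of the other 5 libraries on the log2(FPKM + 1) scale (vertical axis) against summed exon length in bp (horizontal log axis). Diamonds are the 8 genes, and the grey line joins the medians of all genes tested in bins of length, from 0.60 in the bin from 500 to 1000 bp to -0.81 above 12000 bp.

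With this length trend subtracted in every library, the log2 fold changes were 0.29 for Irf4 (95% interval -0.027 to 0.61; limma adjusted p = 0.481), 0.049 for Irf8, -0.19 for Batf, 0.31 for Batf3, -0.027 for Myc, -0.040 for Nfatc1, -0.091 for Nfatc2 and 0.085 for Nfatc3. Of the 8, 4 were positive and 4 negative, beside 48% positive over all genes tested in that fit. The groups of Irf4 still did not overlap, as did those of 23.7% of all genes.

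**Figure D4:**
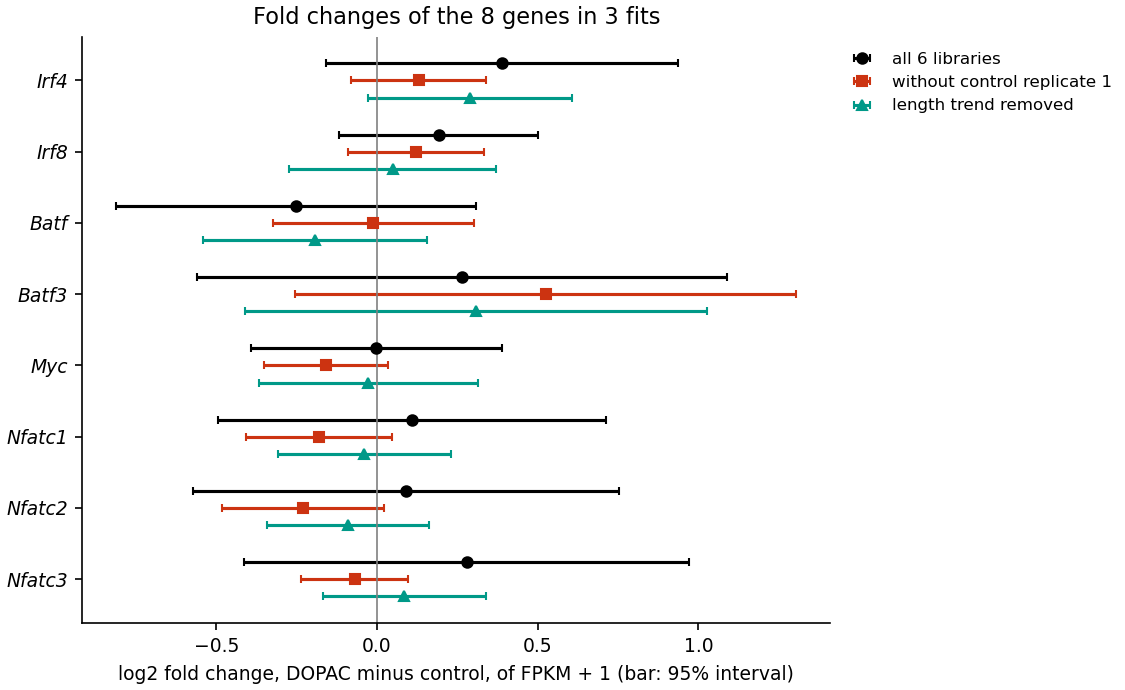
Log2 fold changes of the 8 genes (horizontal axis, DOPAC minus control, FPKM + 1) with 95% intervals in 3 fits, namely all 6 libraries, without control replicate 1, and with the length trend removed. Every interval includes 0, and the values of Nfatc1, Nfatc2 and Nfatc3 move from positive to negative without control replicate 1.

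Genes around these factors were read from 7 lists, and as with the 8 genes 0 of their members had an adjusted p under 0.05. The lists were drawn up with earlier results of these data known. Up to 3 genes of each list were named for the smallest p, so their separation of groups follows in part from that choice. Of 20 IRF family genes and partners 15 were tested, 8 positive and 7 negative with a median log2 fold change of 0.0035, and 0 had an unadjusted p under 0.05 (4.19% of all genes). When control replicate 1 was left out, 4 were positive and 11 negative with a median of -0.12, beside -0.011 over all genes. Stat3, which acts beside IRF4 downstream of cytokines, measured 14.5, 25.8 and 21.6 FPKM in the controls and 32.9, 25.2 and 26.0 FPKM with DOPAC, with overlapping groups. Irf9, the DNA-binding part of the interferon-induced complex ISGF3, had a log2 fold change of 0.31 and Irf3, which responds to nucleic acid sensing, of -0.12. Ikzf3, the Aiolos gene, measured 8.77 ± 3.01 and 8.99 ± 1.06 FPKM (SD, n = 3 each).

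Of 19 BATF and AP-1 partners 13 were tested, with 7 positive, 6 negative and a median of 0.12, which was 0.052 when control replicate 1 was left out and -0.056 with the length trend removed. Atf3, a stress-induced leucine zipper repressor, measured 4.49, 4.34 and 3.85 FPKM in the controls and 13.2, 6.70 and 11.5 FPKM with DOPAC, a log2 fold change of 1.09 (95% interval 0.52 to 1.66; unadjusted p = 0.0029, limma adjusted p = 0.801). Fos, a classical partner of JUN, had values on the other side, with 3.29, 3.48 and 3.39 FPKM in the controls and 1.11, 2.19 and 2.55 FPKM with DOPAC (log2 fold change -0.61, limma adjusted p = 0.801). Ddit3, the CHOP gene, had a log2 fold change of 0.29. For Atf3 and Ddit3 all DOPAC values lay above the controls, and for Fos below. Junb, the gene of a JUN protein that pairs with BATF, had a wide spread within both groups. It measured 64.0, 44.9 and 33.9 FPKM in the controls and 75.1, 24.9 and 35.3 FPKM with DOPAC, replicate 1 being high in both groups. Batf2 was not analysed here.

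The machinery upstream of NFAT gave values on both sides of 0. Of 38 genes of calcineurin and store-operated calcium entry 33 were tested, with 24 positive, 9 negative and a median of 0.063. Without control replicate 1 the counts were 11 positive and 22 negative. Over all genes tested 62.1% were positive with all 6 libraries and 47.3% without that control. Rcan1, a calcineurin inhibitor whose short transcript is itself an NFAT target, measured 2.57, 2.83 and 3.02 FPKM in the controls and 1.95, 2.38 and 1.897 FPKM with DOPAC. All 3 DOPAC libraries lay below the controls (log2 fold change -0.31, 95% interval -0.61 to -0.0084; unadjusted p = 0.045, limma adjusted p = 0.801), and the value was -0.35 without control replicate 1. Gsk3a, which encodes a kinase of the family that phosphorylates NFAT for export, measured 43.2, 42.3 and 43.7 FPKM in the controls and 38.5, 36.8 and 35.8 FPKM with DOPAC, all below, and its unadjusted p was 0.094 (limma adjusted p = 0.801). Nfat5, the NFAT relative that calcineurin does not control, measured 13.3 ± 6.24 and 14.7 ± 1.63 FPKM (SD, n = 3 each), and Nfatc4 was not analysed here.

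Known NFAT targets were spread widely in both directions. Of 30 genes 24 were tested, 15 positive and 9 negative with a median of 0.030. An unadjusted p under 0.05 was found for 4 positive and 2 negative genes, and for 4.19% of all genes tested. Since the list was drawn up with earlier results known, this count does not measure enrichment. Slc2a3, a glucose transporter gene, measured between 5.70 and 14.9 FPKM in the controls and between 23.9 and 36.2 FPKM with DOPAC. Tnfrsf9, which encodes the costimulatory receptor 4-1BB, measured 79.8 to 89.9 and 118 to 161 FPKM, and Ctla4, the inhibitory receptor gene, 56.2 to 67.0 and 95.3 to 155 FPKM. In these 3 genes, named for the smallest p of the list, all DOPAC values lay above the controls, while in Rcan1, on this list as well, they lay below. All had a limma adjusted p of 0.801.

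In the MYC and MAX network 25 of 29 genes were tested, 14 positive and 11 negative with a median of 0.045. The balance turned when control replicate 1 was left out, to 10 positive and 15 negative (median -0.094), and with the length trend removed, to 8 and 17 (median -0.062). All genes tested turned likewise, from 62.1% positive to 47.3% without control replicate 1 and 48% with the length trend removed. Mxi1, which encodes a MAX partner that opposes MYC and is also known as a hypoxia-induced gene, measured 1.45, 2.27 and 1.68 FPKM in the controls and 4.85, 3.04 and 3.43 FPKM with DOPAC, a log2 fold change of 0.76 (95% interval 0.31 to 1.21; unadjusted p = 0.0055, limma adjusted p = 0.801) at a low level. All DOPAC libraries lay above the controls, and the value was 0.67 without control replicate 1. Zbtb17, the gene of the MYC partner MIZ1, had a log2 fold change of -0.25 and Bin1, whose product binds and restrains MYC, of -0.21. Tfap4, the AP4 gene, which prolongs the MYC program in CD8+ T cells, measured 12.01, 12.7 and 11.7 FPKM in the controls and 10.2, 11.1 and 11.0 FPKM with DOPAC, with all DOPAC libraries below the controls and a log2 fold change of -0.16 (95% interval -0.44 to 0.12).

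MYC targets were tested for 43 of 44 genes, 23 positive and 20 negative with a median of 0.020. This turned as well, to 20 positive and 23 negative (median -0.023) when control replicate 1 was left out and to 18 and 25 (median -0.048) with the length trend removed. In those 2 fits 47.3% and 48% of all genes tested were positive, beside 62.1% with all 6 libraries. The 3 genes with the smallest p went both ways. Slc2a1, the main glucose transporter gene of activated T cells, measured 34.6, 54.7 and 37.8 FPKM in the controls and 74.9, 71.5 and 73.9 FPKM with DOPAC. Ldha, the lactate dehydrogenase gene, measured 749 to 789 FPKM in the controls and 941 to 1207 FPKM with DOPAC. Srm, which encodes spermidine synthase, measured 136, 111 and 125 FPKM in the controls and 102, 89.9 and 97.1 FPKM with DOPAC. DOPAC values lay above the controls for Slc2a1 and Ldha and below for Srm (log2 fold changes 0.81, 0.42 and -0.36, limma adjusted p = 0.801 for each). Slc2a1 and Ldha are known targets of hypoxia-inducible factor as well.

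Targets of IRF4 and BATF were positive for 15 of the 18 tested out of 29, beside 62.1% of all genes, with a median of 0.098. Without control replicate 1, 11 of 18 were positive, beside 47.3% of all genes. Besides Ctla4, which this list shares with the NFAT targets, the genes with the smallest p-values included Il12rb2, a chain of the interleukin-12 receptor. It measured 7.86, 16.2 and 15.5 FPKM in the controls and 40.0, 20.9 and 23.9 FPKM with DOPAC (log2 fold change 1.05, or 0.74 without control replicate 1). All 3 DOPAC values lay above the controls. Prdm1, the Blimp-1 gene, was not analysed here. The lists share genes, 6 of them between the targets of NFAT and those of IRF4 and BATF.

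**Figure D5:**
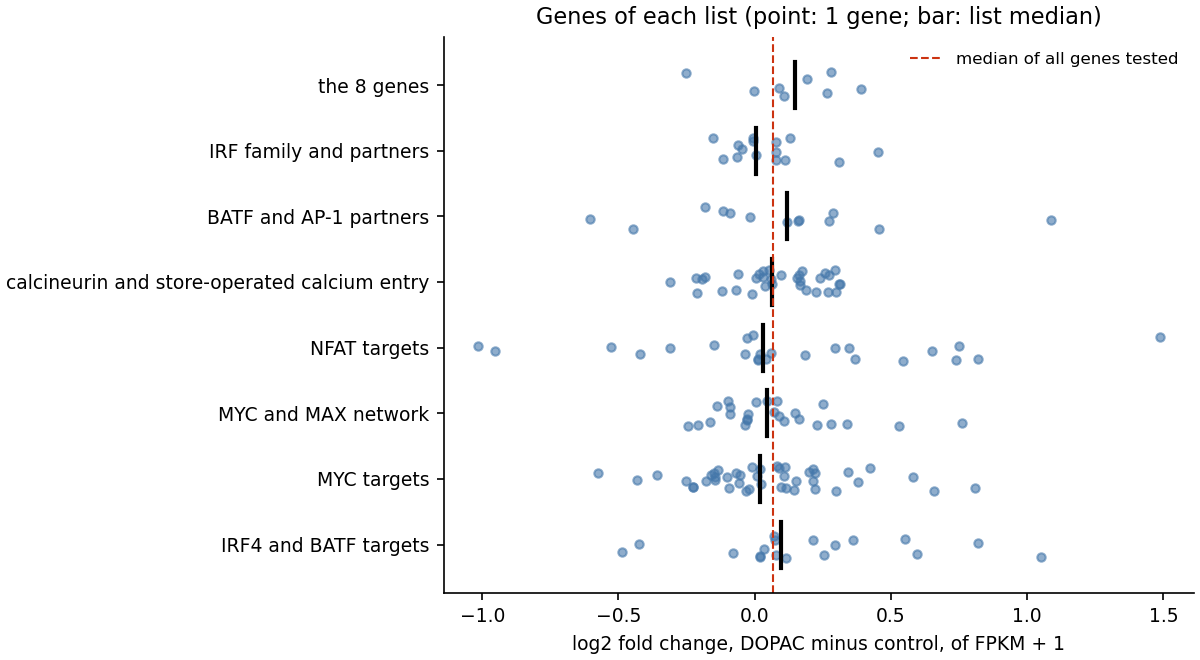
Log2 fold change of each tested gene (horizontal axis, DOPAC minus control, FPKM + 1) in the 8 genes and the 7 lists, 1 point per gene, with a bar at each list's median and a dashed line at the median of all genes tested, 0.066. The medians lie between 0.0035 and 0.15.

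Among 6831 genes with a mean of at least 5 FPKM, those most like each factor over the 6 libraries were Copb1 and Iars for Irf4, Zc3h15 and Lif for Irf8, Mrpl11 and Thoc7 for Batf, Med6 and Eef1e1 for Batf3, Dhdds and Galnt2 for Myc, Akap13 and Sec24b for Nfatc1, Ube4b and Ube2o for Nfatc2, and Itprid2 and Galnt7 for Nfatc3. Likeness was Pearson's r of log2(FPKM + 1), and these pairs had r from 0.969 (Batf3 with Eef1e1) to 0.9998 (Nfatc2 with Ube4b). Over the 5 libraries without control replicate 1 the same pairs had r from 0.958 (Nfatc3 with Galnt7) to 0.999 (Irf4 with Copb1). The 6 points share the separation of control replicate 1, and the best matches among so many genes over 6 points are high by selection, so they are given as a description.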

How the data were processed

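The 6 RNA libraries came from stimulated mouse CD8+ T cells, 3 control and 3 DOPAC, grouped by library name. Per the labels' protocols, TRIzol RNA was turned into full-length SMART-Seq HT cDNA and Nextera XT libraries, which do not mark the strand. Per the submitters' processing notes, cutadapt 1.9, HISAT2 2.2.1 and the build mm10 were used. For the estimator, annotation and gene filter, nothing was given in the sources used here. FPKM per gene is what the authors deposited, with a log2 fold change that matched these values on the log2(FPKM + 1) scale (tolerance 1e-06, 11175 rows) and p-values of an unnamed test. The deposited log2 fold change and p-values were not used.

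Genes with a mean under 1 FPKM (288) were left out. R 4.3.3 with limma 3.58.1 fitted log2(FPKM + 1) with a mean-variance trend, and p-values were adjusted by Benjamini-Hochberg over 10887 genes at a threshold of 0.05. Such fold changes understate those of low genes. The script was tested on simulated data. Exon lengths and positions came from GENCODE M21 (GRCm38), with a length for 99.2% of genes tested, and promoters from RefSeq (GRCm38.p6). Python 3.11.15 and matplotlib 3.10.9 drew the figures.

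The members and lists were chosen with earlier results of these data known. Named genes were the members, up to 3 genes per list with the smallest p, a set of fixed relatives, and the 2 most alike genes per member, of which 2 list genes are not reported here. Replicate numbers are shared by the groups. Deviations from group means correlated at 0.34, 0.16 and 0.28 between same-numbered libraries, each above 0.1. Only the fits with a replicate block treated such libraries as pairs, and the main fit did not. Whether they are pairs is uncertain, since no label names a shared animal. The matched value of 0.16, for replicate 2, was below 2 values between unlike numbers. These were 0.24 for control 2 with DOPAC 3 and 0.19 for control 3 with DOPAC 2. Alternatives were other scalings, pseudocounts, filters and variance models, library weights, a replicate block, length correction and leaving out each library.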

Additional observations from a re-analysis of the deposited data

How the results depend on the processing

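Of the 8 genes, 0 were called under any alternative run. Irf4 and Irf8 kept a positive sign and Batf a negative sign in all 18 alternatives, with ranges of 0.13 to 0.53, 0.049 to 0.25 and -0.45 to -0.012. Among the 18, the filters, the robust variance model and the replicate block with all 6 libraries left these estimates unchanged, so the sign could not turn in them. With the replicate block added, 0 genes of the whole table were called (lowest limma adjusted p 0.439), and the block changed no call of the 8 genes, with values equal to those without it. Leaving out each library in turn gave -0.11 to 0.52 for Batf3, -0.16 to 0.085 for Myc, -0.18 to 0.30 for Nfatc1, -0.23 to 0.30 for Nfatc2 and -0.070 to 0.48 for Nfatc3. Batf3 changed sign without control replicate 2, the 3 NFAT genes without control replicate 1, and Myc without control replicates 2 or 3 or DOPAC replicates 1 or 2. Myc was 0.017 under quantile normalization. Library weights, whose estimation stopped before it converged, gave -0.14 for Nfatc1, -0.18 for Nfatc2 and -0.034 for Nfatc3, and removal of the length trend gave -0.040 for Nfatc1 and -0.091 for Nfatc2. Without control replicate 1, the replicate block gave -0.12, -0.16 and -0.054 and length removal, chosen after seeing the data, gave -0.14, -0.18 and -0.017 for Nfatc1, Nfatc2 and Nfatc3. Batf3 lay under the filter of 5 FPKM, so that alternative gave no value for it. The lowest unadjusted p of any of the 8 was 0.027, for Batf3 in the blocked fit that left out control replicate 1 (limma adjusted p = 0.296). In that fit Irf4 had 0.18 (95% interval 0.0035 to 0.36; unadjusted p = 0.047, limma adjusted p = 0.321). DOPAC replicate 1 had no partner there, so these estimates came from replicates 2 and 3 alone. An unadjusted limma p under 0.05 was found for 1685 of 10887 genes in it, against 456 in the main fit. Small p-values were thus more common there, and the values of Batf3 and Irf4 are not read as changes.

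Over all genes, leaving out each library called 0 to 2 genes, with 2 without control replicate 1. Library weights also called 2, and length removal without control replicate 1 called 1. They were Gm49510 and Spp1, and in the last case Gm49510, named because they passed. The cause was not tested. The count of the 8 genes whose groups do not overlap, examined after seeing the data, was 1 with all 6 libraries, under 2 scalings and with the length trend removed. It was 4 without control replicate 1 and 1 or 2 without each of the others. Over all genes tested the share was 17.2% with all 6 libraries and 18.6% and 19.1% under the scalings. It was 23.7% with the length trend removed. Without control replicate 1 it rose to 36.8%, and without each of the others it was 21.3% to 29.1%. FPKM hold no counts, so the precision of low genes such as Batf3 is unknown.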
